A study of Homo sapiens with 90 samples.

Results

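The xenobiotic-metabolizing cytochrome P450 enzymes CYP3A4, CYP3A5, CYP3A7, CYP2B6, CYP2C8, CYP2C19 and CYP2E1 were described together with POR, the reductase that passes electrons to them. Members were all probe sets of the array that carried exactly 1 gene symbol and whose symbol was 1 of these 8 genes. They came to 20 of 54613 probe sets, for 7 of the 8 genes, and CYP2C19 was not analysed here. HepG2 cells, an established line grown from a human liver tumour, were plated in 96-well plates and exposed for 24 h to fenbuconazole (a triazole fungicide), imazalil (an imidazole fungicide), 2,4-D (2,4-dichlorophenoxyacetic acid, a chlorophenoxy herbicide) or the DMSO vehicle, which every treated well also contained. The dose range of every compound ran over 9 steps (0.001, 0.003 and 0.01 µM, then 0.03 and 0.1 µM, up to 0.3, 1, 3 and 10 µM) with 3 replicate arrays per dose, and the same 3 DMSO arrays served all compounds. The deposited values were log2 signals of RMA, a method that corrects, scales and summarizes the probes of a probe set, and they had been made in 3 separate sets of 30 columns, 1 per compound, each holding its own copy of the 3 DMSO arrays. The labels do not say whether the replicates came from separate cultures. The published paper describes its replicates as independent experiments on separate batches of cells, but for other cell lines than HepG2. The p-values therefore measure the spread between these arrays, which may be technical.

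Microsomal P450 enzymes insert oxygen into drugs, steroids, pesticides and fatty acids, and POR, which carries electrons from NADPH, serves all of them. In liver, CYP3A4 handles a large share of drugs, CYP3A5 is expressed in some adults only, and CYP3A7 is the form of fetal liver. Transcription of the CYP3A, CYP2B and CYP2C genes is raised by the nuclear receptors PXR (NR1I2) and CAR (NR1I3), which bind foreign compounds or respond to them and act as pairs with RXR, whereas CYP2E1 is known mainly for control after transcription and for the oxidation of ethanol and small solvents. Azole fungicides bind the haem iron of P450 enzymes, and several of them are known activators of PXR. HepG2 cells are known for low levels of many adult liver P450 enzymes.

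The promoters of the CYP3A genes are shown because PXR is known to bind an everted repeat in the CYP3A4 promoter, and because the members' largest differences from DMSO at 10 µM came from probe sets of CYP3A7. The windows are the 250 bases before the RefSeq start site on the minus strand of GRCh38.p14, at chr7:99784185-99784434 for CYP3A4, chr7:99679997-99680246 for CYP3A5 and chr7:99735197-99735446 for CYP3A7. Capitals mark the hexamers TGAACT and AGGTCA with the 6 bases between them, or AGGTCA alone where that pair was not found.
CYP3A4: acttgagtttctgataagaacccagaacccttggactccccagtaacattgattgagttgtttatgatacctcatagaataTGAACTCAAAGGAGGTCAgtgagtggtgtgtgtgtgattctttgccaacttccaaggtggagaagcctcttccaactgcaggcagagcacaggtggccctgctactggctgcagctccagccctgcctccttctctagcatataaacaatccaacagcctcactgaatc
CYP3A5: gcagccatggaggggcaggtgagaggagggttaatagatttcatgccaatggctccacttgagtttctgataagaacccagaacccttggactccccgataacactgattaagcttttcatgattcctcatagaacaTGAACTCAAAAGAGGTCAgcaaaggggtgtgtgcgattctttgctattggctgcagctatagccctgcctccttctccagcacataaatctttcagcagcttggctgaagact
CYP3A7: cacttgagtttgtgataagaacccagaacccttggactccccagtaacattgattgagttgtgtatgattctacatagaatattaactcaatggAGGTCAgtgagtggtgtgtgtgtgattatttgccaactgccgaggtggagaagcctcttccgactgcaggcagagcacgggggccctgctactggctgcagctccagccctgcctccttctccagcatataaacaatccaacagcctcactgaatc
The search covered both strands and required TGAACT, 6 bases of any kind and AGGTCA. Both hexamers are those of the CYP3A4 element, so the CYP3A4 match was fixed by the choice of letters. Inexact forms of the repeat were not searched. The CYP3A4 window held this repeat at 169 to 152 bases before the start site, and the CYP3A5 window held it at 113 to 96 bases. The CYP3A7 window held AGGTCA but not the repeat. Counted from 1 at the 5′ end of the 18-base repeat of CYP3A4, the aligned bases of CYP3A7 differed by G2T and A10T, and those of CYP3A5 by G11A. Of 35116 RefSeq promoter windows of the same length, 3 (0.00854%) held the repeat, 2 of them those of CYP3A4 and CYP3A5, while TGAACT alone was in 8.8% and AGGTCA alone in 12.1%. Over aligned bases, CYP3A4 and CYP3A7 were identical at 236 of 249 (94.8%), CYP3A4 and CYP3A5 at 147 of 192 (76.6%), and CYP3A5 and CYP3A7 at 145 of 191 (75.9%). A match is a description of the letters in this window, and RefSeq promoter sequences were found for 7 of the 8 genes.

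Most P450 probe sets gave signals close to the middle of the array, whereas POR was well above it. Levels are given as the log2 signal minus the median signal of the same array, averaged over all 90 columns, and each value describes its own probe set, because probes differ in how brightly they bind. Of the 20 probe sets, 18 lay less than 1 log2 unit above the array median, and 13 of these lay below it. POR (208928_PM_at) lay 4.95 log2 units above the array median, with SDs within groups of 0.08 to 0.10. The leading probe set of CYP3A7 (205939_PM_at), meaning its probe set with the highest mean signal, lay 1.17 log2 units above it and was above it in all 90 columns.

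The other P450 genes were led by probe sets near or below the array median. The leading probe set of CYP3A4 (205998_PM_x_at) lay 0.80 log2 units above the array median, and the other 3 of the gene lay between 0.41 and 0.16 below it. Of CYP3A5, the leading probe set (214234_PM_s_at) lay 0.46 above the median, 205765_PM_at lay 0.21 above it, and 214235_PM_at and 243015_PM_at lay at -0.25 and -0.78. The remaining CYP3A7 probe sets, 211843_PM_x_at and 243609_PM_at, lay 0.84 and 0.37 above it. Every probe set of the CYP2 genes averaged below the array median. Those of CYP2B6, an enzyme of bupropion and cyclophosphamide metabolism, averaged -0.15 (217133_PM_x_at) and -0.63 (206755_PM_at). Those of CYP2C8, an enzyme of paclitaxel metabolism, averaged -0.46 (219903_PM_s_at) and -0.64 (208147_PM_s_at). The 4 probe sets of CYP2E1 averaged between -0.41 and -0.31. Near the array median, a transcript that is absent and one that is rare cannot be told apart on these arrays. Of the 20 probe sets, 5 had the x_at suffix and 4 the s_at suffix, by which the array's maker marks probes that may also bind other transcripts, and the CYP3A genes are alike in sequence, so the CYP3A values cannot be assigned to 1 gene with certainty.

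**Figure D1:**
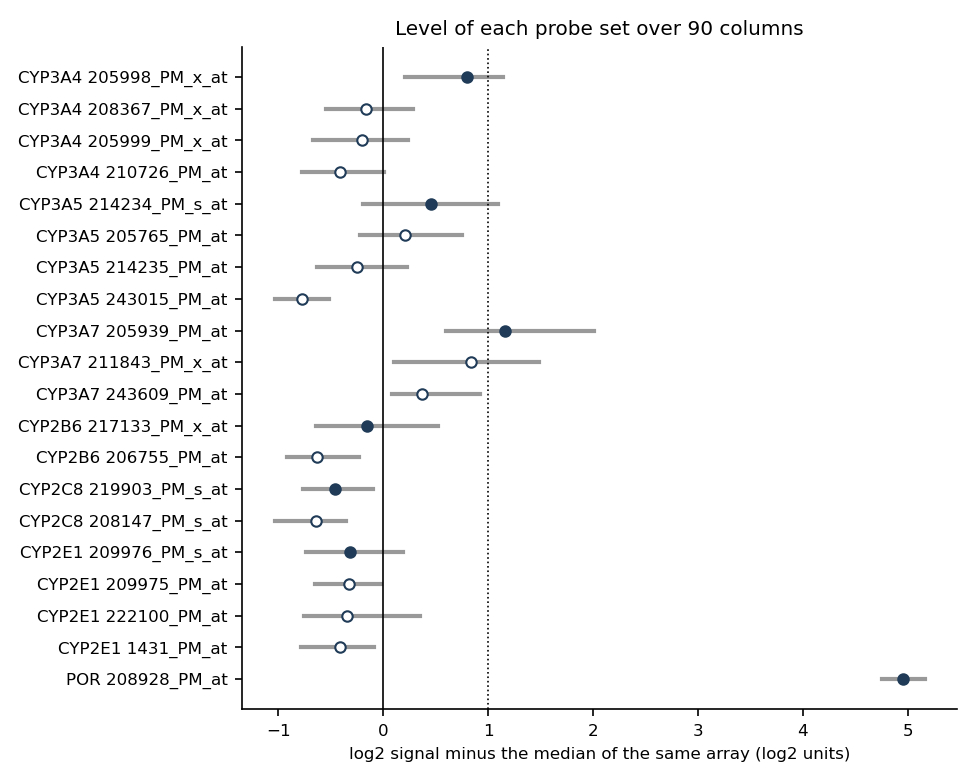
Mean log2 signal minus the array median for each of the 20 probe sets over 90 columns (circles, filled for the leading probe set of each gene), with the lowest and highest column as a grey bar. The dotted line marks 1 log2 unit above the array median, passed by POR at 4.95 and by CYP3A7 205939_PM_at at 1.17.

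The same DMSO arrays gave different P450 values in the 3 normalized sets. For the leading probe set of CYP3A4, the 3 DMSO arrays averaged 0.91 log2 units above the array median in the fenbuconazole set, 0.56 in the imazalil set and 0.98 in the 2,4-D set. The gap between the highest and the lowest copy of an array averaged 0.42 for this probe set, 0.29 for CYP3A7 205939_PM_at, 0.34 for CYP3A7 211843_PM_x_at, 0.24 for CYP2B6 217133_PM_x_at and 0.06 for POR. Over all probe sets the median gap was 0.114, with a 95th percentile of 0.273. The arrays were the same and only their normalization differed. For the leading probe set of CYP3A4 the gap was larger than its difference from DMSO at 10 µM with any of the 3 compounds. The gap lies between sets, whereas each difference from DMSO was taken within 1 set, so the gap is not a measure of its error. Therefore values were compared between compounds only after the mean of each set's own DMSO columns had been subtracted.

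**Figure D2:**
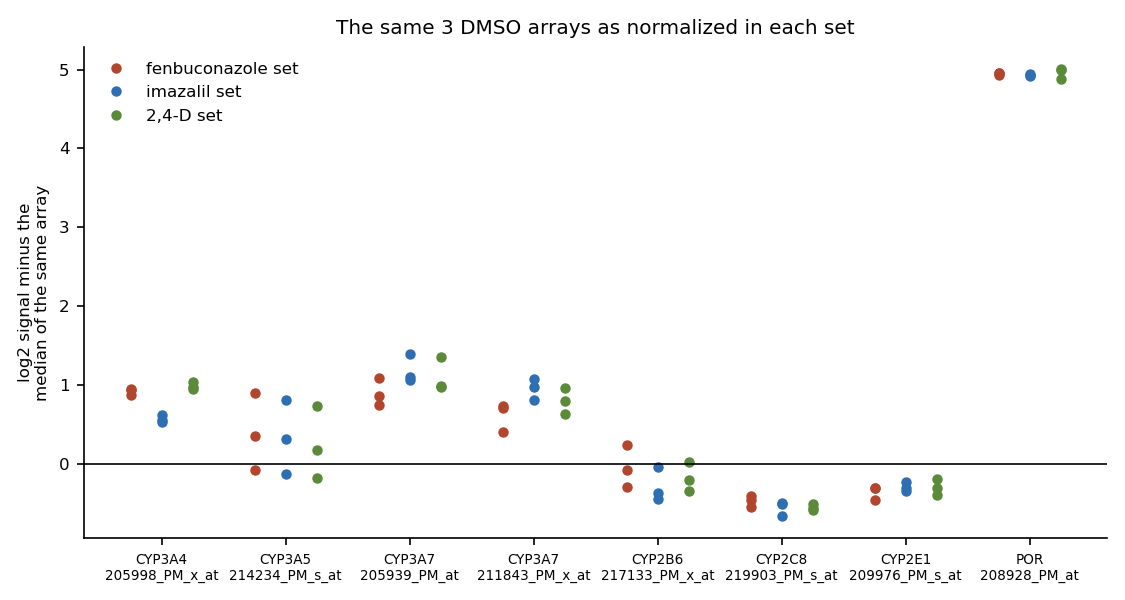
Log2 signal minus the array median of the same 3 DMSO arrays as they appear in the fenbuconazole, imazalil and 2,4-D sets, for the leading probe sets and CYP3A7 211843_PM_x_at, 1 point per array. CYP3A4 205998_PM_x_at averaged 0.91, 0.56 and 0.98 in the 3 sets, while POR averaged 4.95, 4.93 and 4.96.

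At 10 µM, no probe set of the 7 genes passed the threshold of an adjusted p of 0.05 with any compound. Differences were tested with limma over all 54613 probe sets, with p-values adjusted over all of them (Benjamini-Hochberg), and log2 differences and slopes are given ± the SE of the fit. Of all probe sets, 3 (0.00549%) were called with fenbuconazole, 22 (0.0403%) with imazalil and 0 (0%) with 2,4-D. At an unadjusted p of 0.05, 2 of the 20 members passed with fenbuconazole, 1 with imazalil and 0 with 2,4-D, against 4.36%, 5.11% and 4.13% of all probe sets. These shares of the members were near those of the array as a whole. The 3 treated arrays all lay above the 3 DMSO arrays for 3 members with fenbuconazole, 1 with imazalil and 1 with 2,4-D, against 4.7%, 5.49% and 3.71% of all probe sets. They all lay below for 0, 0 and 1 member, against 4.24%, 6.18% and 3.53% of all probe sets. The median log2 difference of the 20 members was 0.04 with fenbuconazole, -0.01 with imazalil and -0.00 with 2,4-D, against -0.00, -0.01 and -0.00 over all probe sets.

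CYP3A7 gave the widest differences from DMSO among the members, and they did not pass the adjusted threshold. With 10 µM fenbuconazole, 205939_PM_at read 4.13, 4.61 and 4.35 on the log2 scale, against 3.83, 3.78 and 4.10 in the DMSO arrays. Every treated array was above every DMSO array, and the lowest treated value (4.13) stood close to the highest DMSO value (4.10). The difference was 0.45 ± 0.12 log2 units (SE, n = 3 each), a 1.37-fold higher signal with a 95% interval of 1.15 to 1.63, at an unadjusted p of 8.78e-04 and an adjusted p of 0.787. Under the alternatives tried, which included leaving out single arrays, this difference ranged from 0.24 to 0.57, and the lowest adjusted p was 0.263.

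With 10 µM imazalil, the same CYP3A7 probe set read 4.60, 4.51 and 4.61, against 4.06, 4.10 and 4.39 in the DMSO arrays of that set. The treated arrays again lay above all the DMSO arrays, by 0.39 ± 0.16 log2 units (SE; 95% interval 0.07 to 0.71), at an unadjusted p of 0.0182 and an adjusted p of 0.962. With 10 µM 2,4-D it read 4.40, 4.57 and 4.39, against 4.04, 4.11 and 4.47. These groups overlapped, with a difference of 0.25 ± 0.13 (95% interval -0.03 to 0.52) and an adjusted p of 1.00. The 3 compounds share their DMSO arrays, so these differences are not independent of each other.

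The other CYP3A7 probe sets did not share this pattern over the compounds. With 10 µM fenbuconazole, 211843_PM_x_at read 4.09, 4.01 and 3.96, against 3.38, 3.77 and 3.72 in DMSO. These groups did not overlap, and the difference was 0.40 ± 0.16 log2 units (95% interval 0.08 to 0.72, unadjusted p = 0.0173, adjusted p = 0.999). For the same probe set the difference was 0.17 ± 0.16 with imazalil and -0.06 ± 0.17 with 2,4-D, both with overlapping groups. For 243609_PM_at the differences were -0.08, -0.14 and 0.17 with fenbuconazole, imazalil and 2,4-D, all with overlapping groups. Over the 81 treated columns, after subtraction of the DMSO means, 205939_PM_at and 211843_PM_x_at correlated at r = 0.27 (0.33, 0.34 and -0.07 within the fenbuconazole, imazalil and 2,4-D sets). The 23 pairs of probe sets of the same gene ran from -0.18 to 0.27, and the 167 pairs of different genes ran from -0.31 to 0.40. These columns share 3 DMSO arrays and the normalization of their set, and most pairs came from dim probe sets.

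The CYP3A4 probe sets were not separated from DMSO at 10 µM. The leading probe set read 3.95, 4.15 and 3.75 with fenbuconazole, against 3.84, 3.97 and 3.96 in DMSO, a difference of 0.02 ± 0.09 log2 units. It read 3.59, 3.30 and 3.52 with imazalil, against 3.48, 3.64 and 3.54 in DMSO, a difference of -0.09 ± 0.13. It read 4.01, 3.96 and 4.06 with 2,4-D, against 4.00, 4.18 and 4.08 in DMSO, a difference of -0.08 ± 0.07. Treated and DMSO arrays overlapped in all 3 sets. Over the 4 CYP3A4 probe sets and 3 compounds, the 95% intervals reached at most a 1.51-fold higher and a 0.717-fold signal.

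CYP3A5 likewise overlapped with DMSO. Its leading probe set had a wide spread among the DMSO arrays, the highest of which lay above every array of 10 µM. It read 3.54, 3.43 and 3.58 with 10 µM fenbuconazole, against 3.32, 2.96 and 3.91 in DMSO. With imazalil it read 3.41, 3.22 and 3.70, against 3.27, 2.90 and 3.80, and with 2,4-D 3.16, 3.54 and 3.58, against 3.24, 2.96 and 3.85. The differences were 0.12 ± 0.20, 0.12 ± 0.21 and 0.08 ± 0.17 log2 units, and the intervals of the gene's 4 probe sets lay between a 0.803-fold and a 1.46-fold signal.

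The CYP2 genes gave small differences of either sign. For CYP2B6 217133_PM_x_at the differences from DMSO at 10 µM were -0.04 ± 0.16 with fenbuconazole, -0.01 ± 0.17 with imazalil and 0.07 ± 0.15 with 2,4-D. For the other CYP2B6 probe set, 206755_PM_at, arrays of 10 µM fenbuconazole read 2.53, 2.47 and 2.42, against 2.37, 2.39 and 2.37 in DMSO, without overlap and with a difference of 0.09 ± 0.11. Its unadjusted p was 0.398, and the groups of this probe set overlapped for imazalil (-0.13 ± 0.11) and 2,4-D (-0.09 ± 0.11). With 10 µM 2,4-D, the CYP2C8 probe sets separated from DMSO in opposite directions, since 219903_PM_s_at read 2.58, 2.59 and 2.61, against 2.55, 2.56 and 2.54, while 208147_PM_s_at read 2.36, 2.47 and 2.50, against 2.54, 2.66 and 2.56. These differences were 0.04 ± 0.09 and -0.15 ± 0.11 log2 units, and neither had an unadjusted p under 0.05 in the limma fit. The 3 DMSO arrays of 219903_PM_s_at had an SD of 0.008 in this set, and both probe sets averaged below the array median. For CYP2E1 209976_PM_s_at the differences were 0.03 ± 0.16, -0.04 ± 0.16 and -0.01 ± 0.11 with fenbuconazole, imazalil and 2,4-D. Over all probe sets of the 3 genes, the 95% intervals at 10 µM lay between a 0.76-fold and a 1.29-fold signal.

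Among the 7 genes, the widest 95% interval at 10 µM was smallest for POR, at 0.375 log2 units. The narrowest single interval belonged to CYP3A4, at 0.288 log2 units. POR read 8.024, 7.964 and 7.995 with 10 µM fenbuconazole, against 7.934, 7.997 and 7.943 in DMSO. It read 7.905, 7.983 and 7.961 with imazalil, against 7.897, 7.963 and 7.920. It read 8.036, 8.128 and 7.946 with 2,4-D, against 8.058, 8.149 and 7.995. Treated and DMSO arrays overlapped in every set. The differences were 0.04 ± 0.09, 0.02 ± 0.08 and -0.03 ± 0.08 log2 units, and the 95% intervals lay between a 0.879-fold and a 1.17-fold signal. Signals come from the RNA of whole cultures, in which fewer cells with the transcript and less transcript per cell cannot be told apart.

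**Figure D3:**
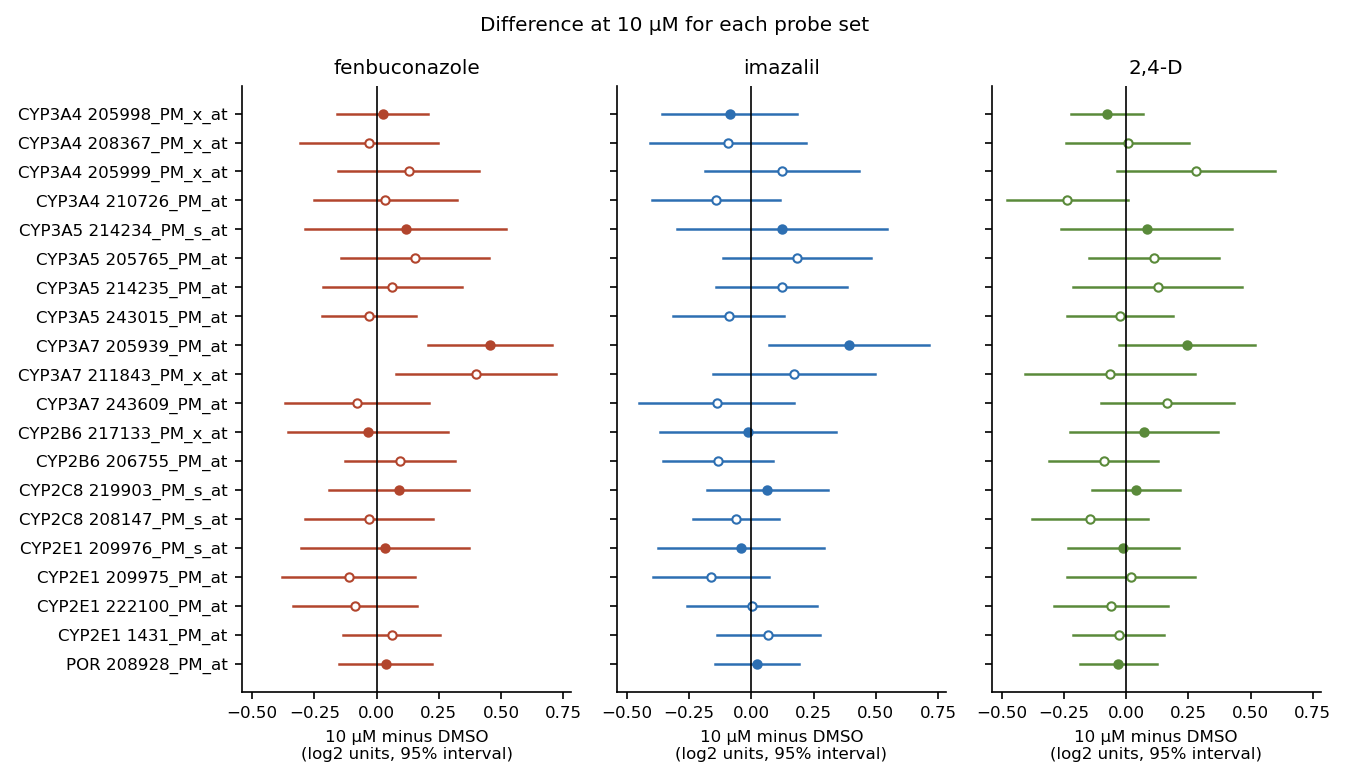
Log2 signal at 10 µM minus DMSO for each of the 20 probe sets with fenbuconazole, imazalil and 2,4-D (circles, filled for leading probe sets), with 95% intervals of the limma fit. The intervals that leave out 0 belong to CYP3A7 205939_PM_at with fenbuconazole (0.45) and imazalil (0.39) and to CYP3A7 211843_PM_x_at with fenbuconazole (0.40), none of which passed after adjustment.

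Over the dose range, the signal of the leading CYP3A7 probe set did not rise in the order of the doses. With fenbuconazole, the means of 205939_PM_at were 3.91 in DMSO and 4.11, 4.24, 4.02, 4.10, 3.83, 3.86, 3.95, 3.92 and 4.36 from 0.001 to 10 µM. The value at 0.003 µM, 0.34 ± 0.12 log2 units above DMSO, lay next to that at 10 µM, and its 3 arrays (4.17, 4.38 and 4.18) were all above DMSO (unadjusted p = 0.00951, adjusted p = 1.00). With imazalil, the means were 4.18 in DMSO and 4.53, 4.53, 4.19, 4.27, 4.16, 4.41, 4.25, 4.36 and 4.57 over the same doses. Here the arrays of 0.001 µM (4.82, 4.32 and 4.44) and of 0.003 µM (4.34, 5.00 and 4.24) included the 2 highest readings of the set, and each dose averaged 0.35 above DMSO at an unadjusted p of 0.0345, with groups that overlapped DMSO. When arrays were left out, these differences ran from 0.14 to 0.49 at 0.001 µM and from 0.07 to 0.59 at 0.003 µM imazalil, and from 0.21 to 0.47 at 0.003 µM fenbuconazole. With 2,4-D, the means were 4.21 in DMSO and 4.36, 4.17, 4.14, 4.13, 4.18, 4.21, 4.17, 4.23 and 4.45. In each set, the 10 µM mean ranked highest of 10 groups, and no neighbours in the order of means differed by more than the pooled SD within groups (0.15, 0.21 and 0.17 with fenbuconazole, imazalil and 2,4-D). Neighbours among 10 sorted means tend to lie close together, so this measure cannot decide whether the dose had an effect. From lowest to highest mean, the ranges were 0.53, 0.41 and 0.32 log2 units.

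Against the 9 arrays of the 3 lowest doses in place of DMSO, CYP3A7 205939_PM_at was higher at 10 µM by 0.24 ± 0.10 log2 units with fenbuconazole, 0.16 ± 0.13 with imazalil and 0.23 ± 0.11 with 2,4-D, with adjusted p-values of 0.911, 0.914 and 1.00. With fenbuconazole, the 3 lowest doses themselves averaged 0.22 above DMSO, and with imazalil 0.24. The second CYP3A7 probe set, 211843_PM_x_at, behaved otherwise with fenbuconazole, where its mean was 3.62 in DMSO, between 3.51 and 3.62 from 0.001 to 1 µM, 3.93 at 3 µM and 4.02 at 10 µM. Its arrays at 3 µM read 3.69, 4.06 and 4.03, and thus overlapped with DMSO. Its slope was 0.10 ± 0.03 log2 units per 10-fold dose (unadjusted p = 0.00177, adjusted p = 0.629), and 0.06 to 0.13 when a replicate number was left out. Its difference from the 3 lowest doses was 0.44 ± 0.13 at 10 µM (adjusted p = 0.515).

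**Figure D4:**
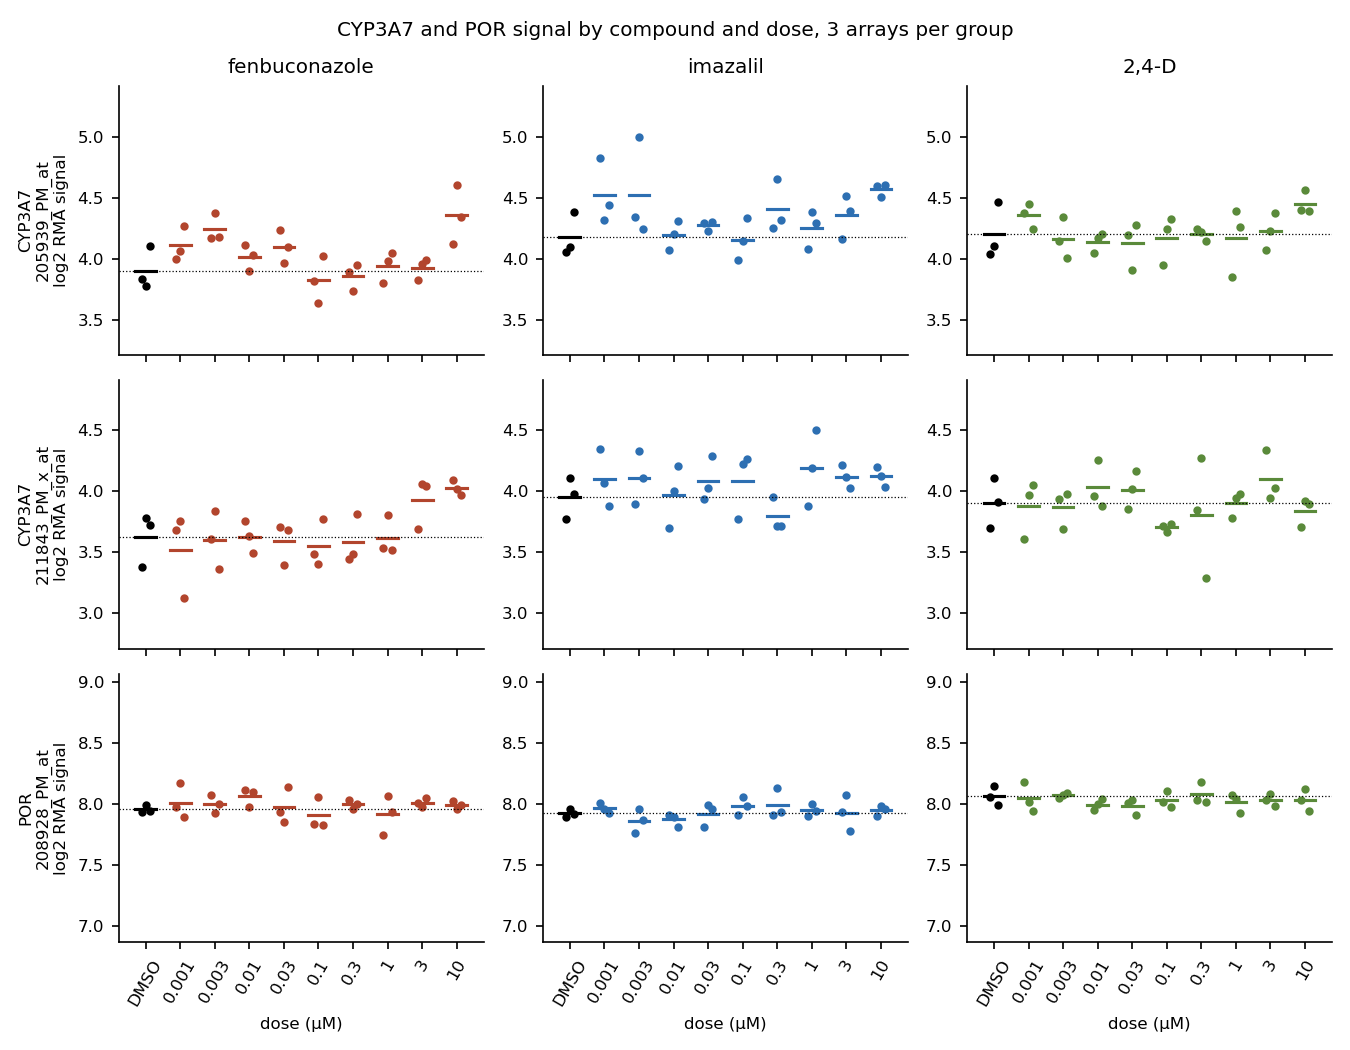
Log2 RMA signal of CYP3A7 205939_PM_at, CYP3A7 211843_PM_x_at and POR 208928_PM_at by dose for fenbuconazole, imazalil and 2,4-D, with 1 point per array, a bar for the mean of 3 arrays and a dotted line at the DMSO mean. CYP3A7 205939_PM_at read up to 5.00 at 0.003 µM imazalil, while POR means stayed within 0.15 log2 units of each other in every set.

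Slopes over the 9 doses were fitted to the log10 dose of the 27 treated arrays of each compound. None of the 20 members was called for a slope with any compound, where 0.011%, 0.0256% and 0% of all probe sets were called with fenbuconazole, imazalil and 2,4-D. At an unadjusted p of 0.05, 1, 2 and 0 members passed, against 6.06%, 6% and 4.78% of all probe sets. Besides CYP3A7 211843_PM_x_at, these were 2 of the 4 probe sets of CYP3A5 with imazalil, in opposite directions. CYP3A5 214234_PM_s_at had a slope of -0.09 ± 0.03 log2 units per 10-fold dose (adjusted p = 0.655), with arrays reading 3.60, 3.95 and 3.55 at 0.001 µM and 3.41, 3.22 and 3.70 at 10 µM. Its slope ran from -0.12 to -0.02 when a replicate number was left out. CYP3A5 214235_PM_at had a slope of 0.05 ± 0.02 (adjusted p = 0.796). The slopes of the other members lay between -0.04 and 0.05.

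An F test over all 9 doses against DMSO called none of the members with any compound, where 0.00549%, 0.0201% and 0% of all probe sets were called with fenbuconazole, imazalil and 2,4-D. At an unadjusted p of 0.05, 2 members passed with fenbuconazole and 0 with imazalil or 2,4-D, against 3.44%, 4.31% and 5.04% of all probe sets. The 2 were CYP3A7 205939_PM_at (F = 4.09, unadjusted p = 0.00222) and CYP3A7 211843_PM_x_at (F = 2.32, unadjusted p = 0.0449), both at an adjusted p of 1.00. With a replicate number left out, F ran from 1.79 to 3.74 for the first and from 1.89 to 2.83 for the second.

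At the doses below 10 µM, none of the 480 values of the members was called, and they lay between -0.25 and 0.41 log2 units. Over all probe sets and the 24 contrasts of these doses, 7.63e-05% of values were called and 3.77% had an unadjusted p under 0.05, which 9 of the 480 member values had. Of these 9, 6 were above DMSO and 3 below. Beside the 3 CYP3A7 values above, CYP3A5 205765_PM_at with imazalil read 3.35, 3.32 and 3.35 at 0.003 µM and 3.36, 3.26 and 3.52 at 0.1 µM, against 3.08, 2.81 and 3.24 in DMSO. This CYP3A5 probe set was thus above DMSO in all arrays of both doses, by 0.30 and 0.33 log2 units, while at 10 µM 2 of 3 arrays were above the DMSO mean. Its mean was above DMSO at all 8 lower doses of imazalil, by 0.11 to 0.33. The 3 values below DMSO were all from CYP2C8 208147_PM_s_at. This probe set read 2.23, 2.39 and 2.35 at 0.001 µM imazalil and 2.14, 2.26 and 2.35 at 3 µM, against 2.49, 2.56 and 2.46 in DMSO. It read 2.29, 2.23 and 2.51 at 0.003 µM 2,4-D, against 2.54, 2.66 and 2.56. The mean of this probe set lay below DMSO at all 8 lower doses of fenbuconazole (-0.15 to -0.09) and of imazalil (-0.25 to -0.10). With 2,4-D its differences ran from -0.25 to 0.02. The 3 compounds share their DMSO arrays, and the part of these arrays in such offsets was not tested. The remaining value was that of CYP2E1 222100_PM_at, which read 2.96, 2.79 and 3.32 at 0.3 µM imazalil, against 2.63, 2.75 and 2.86. The lowest adjusted p of the 480 values was 0.833.

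For the leading probe sets, neighbours in the order of the 10 group means mostly lay closer together than the pooled SD within groups. This measure does not compare groups that are further apart in the order, and neighbours among 10 sorted means tend to lie close together. Of the 9 steps between neighbours in each of the 21 orders, 1 exceeded the pooled SD within groups, that of CYP3A4 with fenbuconazole between 0.1 µM, its highest mean (4.05), and the next group. The range from lowest to highest mean was 0.09 to 0.15 log2 units for POR, 0.19 to 0.29 for CYP3A4, 0.29 to 0.41 for CYP3A5 and 0.32 to 0.53 for CYP3A7. For CYP3A5 with imazalil, the DMSO mean was the lowest of the 10 groups.

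Differences between compounds at 10 µM were tested for the 3 pairs of compounds, which differ in ring structure, a triazole, an imidazole and a chlorophenoxy acid. No member was called in a pair, where 0.0128%, 0.0824% and 0.0311% of all probe sets were called for imazalil minus fenbuconazole, imazalil minus 2,4-D and fenbuconazole minus 2,4-D. At an unadjusted p of 0.05, 1 member passed in each pair, against 8.75%, 7.79% and 6.31% of all probe sets. CYP3A7 211843_PM_x_at was 0.40 above DMSO with fenbuconazole and 0.06 below it with 2,4-D, a difference of 0.46 ± 0.17 log2 units (95% interval 0.13 to 0.80, adjusted p = 0.604). CYP3A7 243609_PM_at differed by -0.30 ± 0.14 for imazalil minus 2,4-D (95% interval -0.59 to -0.02, adjusted p = 0.619). CYP2B6 206755_PM_at differed by -0.23 ± 0.11 for imazalil minus fenbuconazole (95% interval -0.45 to -0.00, adjusted p = 0.563). The leading CYP3A7 probe set differed by -0.06 for imazalil minus fenbuconazole, with an interval of -0.35 to 0.23, by 0.15 for imazalil minus 2,4-D (-0.15 to 0.44), and by 0.21 for fenbuconazole minus 2,4-D (-0.04 to 0.46). For POR the intervals of the 3 differences lay between -0.19 and 0.23 log2 units. These intervals leave room for differences of that size between the compounds.

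Genes that work with these enzymes are given from lists of the pathway. CYP1A1, the main target of the aryl hydrocarbon receptor, rose with 2 compounds at 10 µM. It averaged 6.26 ± 0.31 with fenbuconazole, against 4.61 ± 0.28 in DMSO (SD, n = 3 each), a 3.15-fold higher signal with an adjusted p of 0.00150, and 7.63 ± 0.20 with imazalil, against 4.62 ± 0.24 in DMSO, an 8.08-fold higher signal with an adjusted p of 2.00e-09. With 2,4-D it averaged 4.63 ± 0.08, against 4.60 ± 0.36. The other 6 probe sets of the CYP1 enzymes were not called with any compound. ALAS1, the first enzyme of haem synthesis and a known target of PXR and CAR, rose with imazalil at 205633_PM_s_at, to 7.87 ± 0.03, against 7.35 ± 0.01 in DMSO (1.43-fold, adjusted p = 0.0248). The ALAS1 call ended whichever array of 10 µM or DMSO was left out, with adjusted p-values of 0.113 or higher and differences of 0.50 to 0.53 log2 units. The CYP1A1 call with fenbuconazole ended without replicate 1 (adjusted p = 0.190) and without replicate 2 (adjusted p = 0.335) of all groups. In a fit to 10 µM and DMSO alone, the ALAS1 call (adjusted p = 0.347) and the CYP1A1 call with fenbuconazole (adjusted p = 0.122) were lost, and the CYP1A1 call with imazalil was kept. Over all alternatives the adjusted p ran from 0.00233 to 1.00 for ALAS1 with imazalil and from 1.32e-06 to 0.335 for CYP1A1 with fenbuconazole.

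No other probe set of these lists was called, where 0.00549%, 0.0403% and 0% of all probe sets were called with fenbuconazole, imazalil and 2,4-D at 10 µM. Of electron transfer and haem supply (cytochrome b5, its reductase and haem enzymes), 1 of 15 probe sets, that of ALAS1, rose and 0 fell with imazalil, and 0 were called with fenbuconazole or 2,4-D. At an unadjusted p of 0.05, 1, 4 and 0 of the 15 passed with fenbuconazole, imazalil and 2,4-D, against 4.36%, 5.11% and 4.13% of all probe sets. With imazalil, the other 3 of the 4 were probe sets of cytochrome b5 (CYB5A), at 0.36, 0.32 and 0.55 log2 units and adjusted p-values of 0.247, 0.310 and 0.335. Of the other CYP2 and CYP3 enzymes, 0 of 23 probe sets were called with any compound, at medians of -0.01, -0.00 and -0.01 log2 units with fenbuconazole, imazalil and 2,4-D. At an unadjusted p of 0.05, 1, 2 and 2 of the 23 passed. Of the other PXR and CAR targets, which include the efflux pumps ABCB1 and ABCC2 and the sulfotransferase SULT2A1, 0 of 20 were called, at medians of 0.07, 0.11 and 0.03. At an unadjusted p of 0.05, 2, 5 and 3 of the 20 passed with fenbuconazole, imazalil and 2,4-D, against the same 4.36%, 5.11% and 4.13% of all probe sets. The 5 with imazalil all had positive differences, of 0.60 log2 units for GSTA1, a glutathione transferase (adjusted p = 0.221), 0.47 and 0.46 for SULT2A1 (adjusted p = 0.0734 and 0.424), 0.30 for ABCB1 and 0.25 for ABCC2. The directions of the 2 that passed with fenbuconazole and the 3 with 2,4-D are not given singly. Differences of these 20 probe sets ran from -0.28 to 0.38 with fenbuconazole, -0.21 to 0.60 with imazalil and -0.16 to 0.30 with 2,4-D. Of receptors and liver factors, 0 of 26 were called, at medians of -0.00, 0.04 and 0.01. At an unadjusted p of 0.05, 1, 3 and 1 of the 26 passed with fenbuconazole, imazalil and 2,4-D. The 2 probe sets of NR1I3, which encodes CAR, lay 0.18 and 0.51 log2 units below the array median, and NR1I2 was not analysed here.

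The arrays carried the markers of the labelled liver line. Of 20 probe sets of hepatocyte markers, 17 lay at least 1 log2 unit above the array median, with albumin (ALB) at up to 10.07 and alpha-fetoprotein (AFP), a protein of fetal liver and liver tumours, at 9.50. Of mesenchymal markers 1 of 16 probe sets, and of blood and endothelial markers 0 of 13, lay that high. None of these marker probe sets was called at 10 µM with any compound. Array medians ran from 2.95 to 3.15 on the log2 scale, and replicate arrays correlated at r = 0.991 to 0.997.

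By likeness over the 81 treated columns, the genes closest to CYP3A7 205939_PM_at were AKR1C1 (Pearson r = 0.66), AKR1C2 (r = 0.65) and AKR1B10 (r = 0.60), which encode aldo-keto reductases. The probe sets of AKR1C1 and AKR1C2 had the x_at suffix and that of AKR1B10 the s_at suffix, so these may not be separate signals. The candidates were the 17178 probe sets of a single gene symbol that lay at least 1 log2 unit above the array median. The 3 genes closest to POR were CNPY3, ACTN4 and EIF5A, at r = 0.59, 0.58 and 0.57. For the leading probe sets of CYP3A4, CYP3A5, CYP2B6, CYP2C8 and CYP2E1, the highest r with any candidate was 0.48, 0.50, 0.61, 0.49 and 0.57. The interquartile range of an array's signals, a measure of its overall contrast, correlated with CYP2B6 217133_PM_x_at at r = -0.47 and with CYP2E1 209976_PM_s_at at r = -0.46, while with CYP3A7 205939_PM_at r was -0.11. Its part in these likenesses was not tested. The columns share 3 DMSO arrays and the scaling of their set, and these values are descriptions.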

How the data were processed

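Gene expression of HepG2 cells had been measured on Affymetrix HT HG-U133+ PM arrays. The log2 values deposited by the authors were RMA signals made in 3 separate sets of 30 columns, with the Partek software named in the submitters' notes and its version not given in the sources used here, so the depth of a count table does not apply and the number of arrays limits the precision. No further normalization was made. Fits used limma 3.58.1 in R 4.3.3 on all 54613 probe sets that are not controls, within each compound's set, with Benjamini-Hochberg adjustment over all of them and a threshold of 0.05. The fits were a contrast of each dose against the 3 DMSO columns with 10 groups in the model, an F test over the 9 doses, a slope on the log10 dose of treated arrays, and differences between compounds at 10 µM on values minus the DMSO mean of the set, whose error leaves out the spread of the shared DMSO arrays. Scripts were tested on simulated data with known changes.

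Named were all 20 probe sets of the listed genes and the probe sets of the pathway lists that were called. The 3 genes most like the leading probe set were named for CYP3A7 and POR. Uncalled probe sets of CYB5A, GSTA1, SULT2A1, ABCB1 and ABCC2 were named for their unadjusted p with imazalil, and NR1I3 for its level. This choice was made with the values in view. Members and lists were chosen with earlier results of these data known. The probe-to-gene table gave exactly 1 gene symbol for 40914 of the probe sets (19774 genes), and 1 probe set that carried the symbol of a member and another symbol was left out. Promoters came from RefSeq (GRCh38.p14). Replicate numbers are shared by all groups. With 2,4-D, deviations of 10 µM and DMSO arrays of the same number correlated at 0.372, 0.286 and 0.162, and the fit with the replicate number as a block called 0 probe sets there, as without it. Alternatives were 1 probe set per gene, no dim probe sets, a trended robust variance, the compared groups alone, quantiles shared by all columns, the array's interquartile range as a covariate, a replicate block, the 3 lowest doses as baseline, and leaving out arrays.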

Additional observations from a re-analysis of the deposited data

Results flagged for a closer look

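At 10 µM, differences between compounds passed the test for CYP1A1 and ALAS1, which were taken from the pathway lists. Besides the members, only list probe sets already called against DMSO at 10 µM were looked at here. Both genes had thus been picked on the same arrays. These effects on the same contrast were set against each other by limma with adjustment over all probe sets. The difference of CYP1A1 205749_PM_at from DMSO was larger with imazalil than with fenbuconazole by 1.36 log2 units (95% interval 0.91 to 1.80, adjusted p = 0.00607), and this call ended without replicate 1 (adjusted p = 0.244) or replicate 2 (adjusted p = 0.385). It was larger with imazalil than with 2,4-D by 2.98 log2 units (adjusted p = 1.15e-16) and larger with fenbuconazole than with 2,4-D by 1.62 log2 units (adjusted p = 2.00e-07). The difference of ALAS1 205633_PM_s_at was 0.52 with imazalil and 0.03 with 2,4-D, a gap of 0.49 log2 units (95% interval 0.32 to 0.66, adjusted p = 0.00221), and its call ended without replicate 1, 2 or 3 (adjusted p = 0.0642, 0.349 and 0.427). Groups of 3 arrays were not tested for outliers.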

How the results depend on the processing

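No member was called under any of the 17 alternatives in the tests that each of them repeated (6024 values, lowest adjusted p 0.263), of which 2 tested 7 of the 20 probe sets and the others all 20. Values were followed singly for 39 results, the leading probe sets at 10 µM and those with an unadjusted p under 0.05, and no value of CYP3A7 at 10 µM changed sign for its leading probe set, which ranged from 0.24 to 0.57 with fenbuconazole, 0.16 to 0.50 with imazalil and 0.14 to 0.41 with 2,4-D. Among the values followed singly, signs changed in 51 values of 16 results, all uncalled differences at 10 µM.

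With the 3 lowest doses as baseline, log2 differences that changed sign were CYP2B6 0.014 and CYP3A4 0.0012 with imazalil, CYP2C8 -0.0047 with 2,4-D and -0.076 with imazalil, CYP2E1 0.048 with 2,4-D and -0.023 with fenbuconazole, CYP3A5 -0.088 with 2,4-D and -0.25 with imazalil, and POR -0.031 with fenbuconazole, each for the leading probe set. With imazalil, CYP2B6 was 0.011 with shared quantiles and 0.072 with the interquartile range as covariate. With that covariate CYP2E1 was -0.041 with fenbuconazole and 0.042 with imazalil. When arrays were left out, CYP2B6 ran from -0.16 to 0.12 with fenbuconazole, -0.15 to 0.16 with imazalil and -0.093 to 0.28 with 2,4-D. CYP2C8 ran from -0.017 to 0.17 with fenbuconazole. CYP2E1 ran from -0.036 to 0.094 with fenbuconazole, -0.18 to 0.044 with imazalil and -0.083 to 0.046 with 2,4-D. CYP3A4 ran from -0.075 to 0.14 with fenbuconazole and -0.18 to 0.040 with imazalil. CYP3A5 ran from -0.10 to 0.37 with fenbuconazole, -0.087 to 0.36 with imazalil and -0.17 to 0.33 with 2,4-D. POR ran from -0.077 to 0.014 with 2,4-D.

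Counts of called probe sets over the whole array moved more, and the cause was not tested. A trended robust variance called 14 with fenbuconazole and 38 with imazalil at 10 µM, 16, 32 and 5 in the F tests with fenbuconazole, imazalil and 2,4-D, 33 for the imazalil slope, 2 for imazalil minus fenbuconazole and 2 at lower doses. The compared groups alone gave 0 with fenbuconazole and 4 with imazalil. The 3 lowest doses as baseline gave 14 with fenbuconazole and 52 with imazalil. The interquartile range as covariate gave 5 with fenbuconazole, 11 and 36 for the fenbuconazole and imazalil slopes, and 4 for imazalil minus fenbuconazole. With 1 probe set per gene, 3 were called for the fenbuconazole slope, 7 in the imazalil F test and 27 for the imazalil slope. Without dim probe sets, 6 were called in the fenbuconazole F test, 27 for the imazalil slope, 68 for imazalil minus 2,4-D, 11 for imazalil minus fenbuconazole and 2 at lower doses. Shared quantiles gave 3 for the fenbuconazole slope. The replicate block gave 71 for imazalil minus 2,4-D and 3 at lower doses, and its number for 10 µM against DMSO was 3 with fenbuconazole and 25 with imazalil. Deviations of same-numbered arrays correlated at 0.342, 0.183 and 0.0775 with fenbuconazole and -0.122, 0.0623 and 0.135 with imazalil. With those of 2,4-D included, 6 of 9 such values were over 0.1. Whether same-numbered arrays belong together was therefore not settled. The main fits left the numbers out, and with the replicate block no member was called in the limma tests (lowest adjusted p 0.493). Leaving out arrays gave 0 to 4 calls with fenbuconazole and 3 to 13 with imazalil at 10 µM, 0 and 1 to 5 in their F tests, 0 and 0 to 2 for their slopes and 0 to 1 for the 2,4-D slope. It gave 0 to 1 for imazalil minus fenbuconazole, 10 to 13 for imazalil minus 2,4-D, 1 to 3 for fenbuconazole minus 2,4-D and 0 to 1 at lower doses. Most P450 probe sets lay near the array median, and the 3 arrays per group limited the precision.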
